A study of Bos taurus with 9 samples.

Results

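Cytochrome c oxidase (complex IV) is built from several nuclear-encoded subunits that exist as isoform pairs, with a ubiquitous gene and a tissue-restricted gene for the same position. The genes described here are COX4I1 and COX4I2, COX6A1 and COX6A2, COX6B1 and COX6B2, COX7A1 and COX7A2, the COX7A-related gene COX7A2L, and COX7B2. They were taken by gene symbol, and the set was chosen by the measured FPKM of COX7A1, which was higher after IFNT. Therefore, the values of COX7A1 in the comparisons with IFNT-treated cells are a description without a test, and the other genes are present for the subunit they encode. The difference of COX6B2 in GB was also known from an earlier analysis of these data, so its tests are not independent evidence. Of the 10 genes, 9 had a row among the 17162 genes of the expression table, and 8 of these 9 were among the 12578 genes tested. COX6A2 was not analysed here, and COX4I2 was below the filter of a mean of 0.5 FPKM (a fragment count scaled for exon length and for the mapped reads of the library).

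Triplicate mRNA libraries came from primary bovine endometrial cells, which the labels call epithelial and wild type. The control cells (CON) received no treatment. The GA cells received 1 nM estradiol (E2) and 100 nM progesterone (P4) for 12 h, and the GB cells received the same hormones followed by 100 ng/mL interferon tau (IFNT) for 12 h. IFNT is the type I interferon by which the ruminant conceptus signals its presence to the uterus. The cells were isolated from uteri of Holstein cows collected at an abattoir, purified by differential attachment over several passages, and grown in DMEM/F12 with fetal bovine serum. The sources used here do not say how many cows contributed to each library, so that the p-values may measure only the spread between cultures. They also do not say separately when the CON and GA cells were collected, and a difference in culture time cannot be told apart from the treatment in the comparisons with GB.

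The libraries followed their treatment labels, whereas epithelial marker transcripts were nearly absent. The study identified the cells as epithelial by immunofluorescence for cytokeratin. The mean level of the interferon-stimulated gene ISG15 was 4.50 FPKM in the CON group, 4.25 FPKM in the GA group and 5582 FPKM in the GB group. For the estrogen-responsive gene GREB1 it was 0.19, 2.26 and 2.34 FPKM. All 6 epithelial markers (KRT7, KRT8, KRT18, KRT19, CDH1 and MUC1) had a mean under 0.5 FPKM in every group, and their summed level was 0.54 to 1.32 FPKM in CON libraries, 0.83 to 1.33 FPKM with hormones and 0.89 to 1.82 FPKM with IFNT. The summed level of 6 stromal fibroblast markers, led by VIM, was 15439 to 16010 FPKM in CON libraries, 15532 to 15831 FPKM with hormones and 13788 to 13932 FPKM with IFNT. The cells are therefore called endometrial cells here. The summed FPKM of a library was 1395622 to 1442723. The deposited values hold no read counts, so that the read depth behind a value is not known from them.

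Complex IV is the terminal enzyme of the mitochondrial respiratory chain and passes electrons from cytochrome c to oxygen. Its catalytic core is encoded by mitochondrial DNA (mtDNA), whereas the nuclear subunits surround the core and are known for roles in assembly, stability and regulation. COX7A1 and COX6A2 are known as the heart and skeletal muscle isoforms, COX4I2 as an isoform of the lung that responds to oxygen, and COX6B2 and COX7B2 as isoforms of the testis. The ubiquitous partners are found in most tissues, the uterus included.

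The ubiquitous isoforms and COX7A2L were among the most abundant transcripts of the endometrial cells, and the restricted isoforms were lower by more than an order of magnitude in CON and GA. In CON the mean level was 1328 FPKM for COX6A1, 1298 for COX4I1, 1048 for COX6B1, 1002 for COX7A2 and 704 for COX7A2L. The levels of COX6A1 and COX4I1 overlapped between the CON libraries, and so did those of COX6B1 and COX7A2. The restricted isoforms followed at 29.9 FPKM for COX6B2, 21.4 for COX7A1, 3.02 for COX7B2 and 0.31 for COX4I2, where COX6B2 and COX7A1 overlapped. By rank among all 17162 genes in CON, COX6A1 was at place 172, COX7A2L at 343, COX6B2 at 5123 and COX7A1 at 6219. In GA the order was COX6A1, COX4I1, COX7A2, COX6B1, COX7A2L, COX6B2, COX7A1, COX7B2 and COX4I2, and overlap between neighbours was limited to COX7A2 with COX6B1 and COX6B2 with COX7A1. In GB the libraries of COX6B1, COX7A2 and COX7A2L overlapped from neighbour to neighbour, and the order of the restricted isoforms was different. All 3 GB libraries had more COX7A1 than COX6B2, and COX7A1 was at place 1793 whereas COX6B2 was at 7628.

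**Figure D1:**
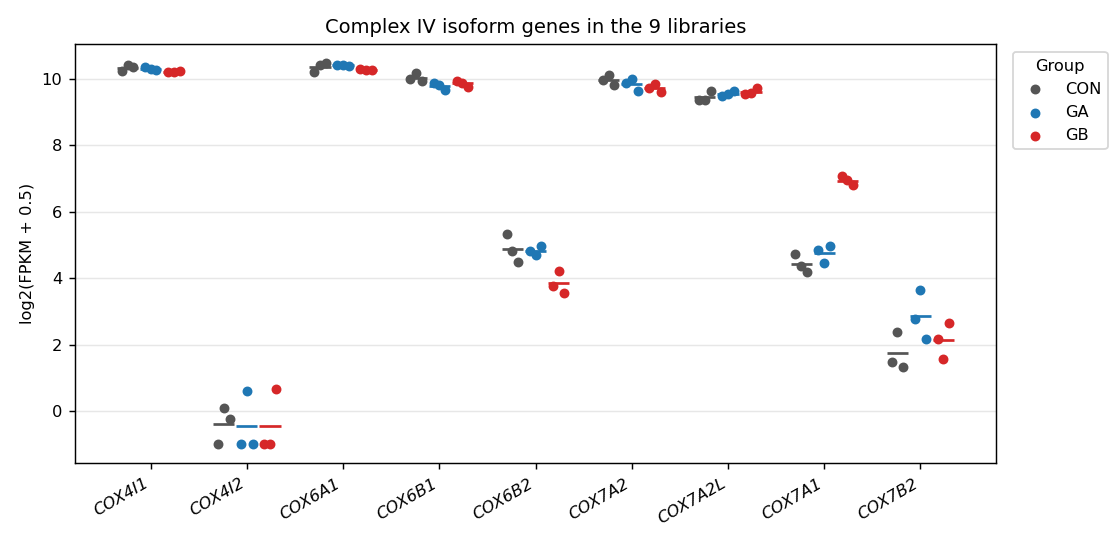
Level of each isoform gene as log2(FPKM + 0.5) in the 9 libraries. Points are libraries, 3 per group, and short lines are group means, and a value of 0 FPKM lies at -1. The ubiquitous genes and COX7A2L lie at the top with overlapping or close groups, COX7A1 is higher in the GB libraries (112 to 134 FPKM) than in all others (17.9 to 30.9 FPKM), and COX6B2 is lower in GB (11.2 to 18.0 FPKM) than in all others (21.9 to 39.9 FPKM).

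COX7A1 encodes the muscle isoform of subunit 7A, a small subunit with a membrane-spanning helix at the periphery of the complex. Its level was 26.2, 20.2 and 17.9 FPKM in the CON libraries, 28.0, 21.3 and 30.9 FPKM in the GA libraries, and 134, 122 and 112 FPKM in the GB libraries. The GB libraries lay far above the other 6, which overlapped between CON and GA. The mean level in GB (122 ± 11.03 FPKM, SD, n = 3) was 5.72 times that in CON (21.4 ± 4.31) and 4.58 times that in GA (26.8 ± 4.94). On the log2(FPKM + 0.5) scale the difference was 2.50 (SE 0.161) in GB vs. CON and 2.19 (SE 0.161) in GB vs. GA, with no test since COX7A1 was chosen for this difference. By size, these were the 126th and the 149th highest log2FC of the 12578 genes tested. Over the 20 alternative settings, the log2FC was 2.38 to 2.65 in GB vs. CON and 2.03 to 2.30 in GB vs. GA.

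The hormones alone did not give a detectable difference in COX7A1. In GA vs. CON, which played no part in the choice of the gene, the log2FC was 0.32 (SE 0.161, 95% confidence interval -0.05 to 0.68, adjusted p = 0.313 by limma). Striated muscle markers were low except for DES. Of 13 such markers 10 had a row, and 7 of these 10 had a mean under 0.5 FPKM in every group, among them ACTA1, MYH7 and CKM. MB averaged 1.64 FPKM in CON libraries, 3.43 FPKM with hormones and 1.97 FPKM with IFNT, and TNNI3 was 8.04, 8.02 and 6.99 FPKM. The summed level of the 10, of which DES made up most, was 255 to 268 FPKM in CON libraries, 204 to 212 FPKM with hormones and 170 to 177 FPKM with IFNT. In such bulk libraries, more cells of a kind and more RNA per cell cannot be told apart.

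COX7A2 encodes the ubiquitous subunit 7A, in the same position as COX7A1. Its level was 1000, 1107 and 900 FPKM in CON, 934, 1022 and 792 FPKM in GA, and 841, 913 and 774 FPKM in GB, with overlap between all groups. Its log2FC was -0.25 in GB vs. CON (SE 0.106, 95% confidence interval -0.49 to -0.01, adjusted p = 0.102), -0.12 in GB vs. GA (adjusted p = 0.454) and -0.13 in GA vs. CON (adjusted p = 0.518). None of these passed the threshold.

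The make-up of the subunit 7A transcripts differed between the groups, while their summed level overlapped. COX7A1 made up 2.55, 1.79 and 1.94% of the summed FPKM of COX7A1 and COX7A2 in CON, 2.91, 2.04 and 3.76% in GA, and 13.7, 11.8 and 12.6% in GB. The mean share was 2.10 ± 0.403% in CON, 2.91 ± 0.859% in GA and 12.7 ± 0.953% in GB (SD, n = 3). The summed level of both genes was 1024 ± 105 FPKM in CON, 943 ± 112 FPKM in GA and 965 ± 75.5 FPKM in GB. COX7A2 remained the more abundant isoform in all 9 libraries, by 46.8 times in CON, 34.2 times in GA and 6.88 times in GB (ratio of group means). In GA vs. CON, the only comparison of this ratio on which the choice of COX7A1 did not rest, the log2 ratio of COX7A1 to COX7A2 differed by 0.45 (exact permutation test, two-sided, p = 0.2, adjusted p = 0.4 over 2 pairs). With 3 libraries against 3 this test cannot go below 0.1.

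COX7A2L encodes the 7A-related protein, which is known for joining complex IV to complex III in respiratory supercomplexes. Its level was 661, 660 and 792 FPKM in CON, 713, 747 and 790 FPKM in GA, and 742, 760 and 841 FPKM in GB. The groups overlapped, and the log2FC was 0.15 in GB vs. CON (SE 0.0795, 95% confidence interval -0.03 to 0.33, adjusted p = 0.174), 0.06 in GB vs. GA (adjusted p = 0.629) and 0.09 in GA vs. CON (adjusted p = 0.543).

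**Figure D2:**
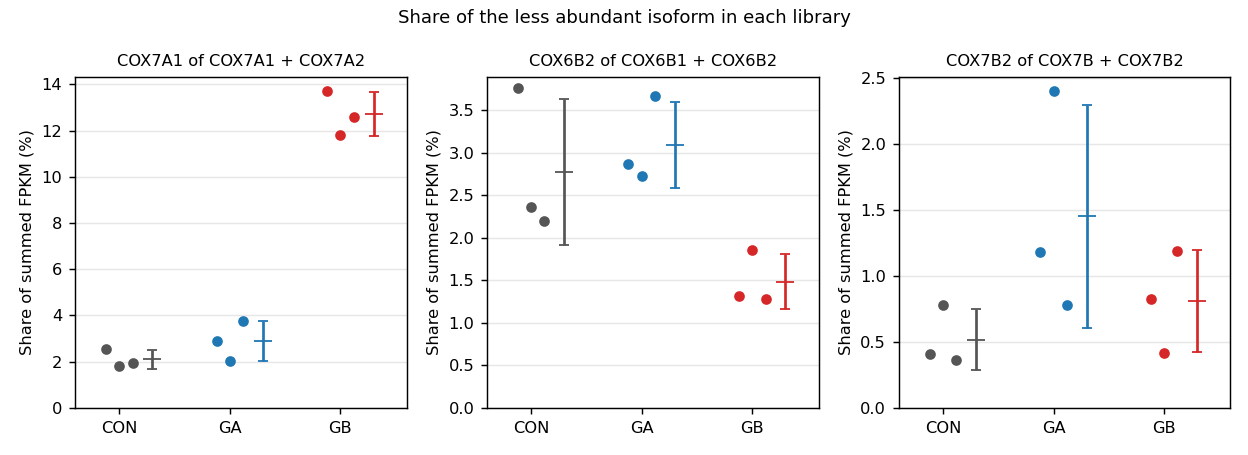
Share of the less abundant isoform in the summed FPKM of each pair, in percent, for COX7A1 with COX7A2, COX6B2 with COX6B1, and COX7B2 with COX7B. Points are libraries, and the bar to their right is the mean ± SD of 3 libraries; each panel has its own axis from 0. The COX7A1 share is 11.8 to 13.7% in GB and at most 3.76% elsewhere, the COX6B2 share is 1.28 to 1.86% in GB and higher in every CON and GA library, and the COX7B2 shares overlap.

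COX6B1 and COX6B2 encode the ubiquitous and the testis isoform of subunit 6B, which lies on the side of the complex where cytochrome c docks. COX6B2 was 39.9, 27.8 and 21.9 FPKM in CON, 27.9, 25.2 and 31.1 FPKM in GA, and 13.1, 18.0 and 11.2 FPKM in GB. All GB libraries were below all others, while CON and GA overlapped. The mean level in GB (14.1 ± 3.47 FPKM, SD, n = 3) was 0.472 times that in CON (29.9 ± 9.14) and 0.503 times that in GA (28.0 ± 2.97). COX6B2 fell by 1.04 on the log2 scale in GB vs. CON (SE 0.219, 95% confidence interval -1.54 to -0.55, adjusted p = 0.00591) and fell by 0.99 in GB vs. GA (SE 0.219, 95% confidence interval -1.48 to -0.49, adjusted p = 0.00882). The first met both thresholds of a call (|log2FC| above 1 and adjusted p under 0.05), and the second met the p threshold only. The log2FC in GA vs. CON was -0.05 (adjusted p = 0.917). The call in GB vs. CON was lost on the fold threshold without CON1 (log2FC of -0.82) or GB3 (-0.90), and on the p with the GC content of each library as a covariate (log2FC of -1.15, adjusted p = 0.147, limma).

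COX6B1 was 1021, 1148 and 976 FPKM in CON, 944, 897 and 817 FPKM in GA, and 982, 948 and 866 FPKM in GB. The GA libraries were all below the CON libraries, and the GB libraries overlapped with both. The log2FC was -0.24 in GA vs. CON (95% confidence interval -0.41 to -0.07, adjusted p = 0.155), -0.17 in GB vs. CON (adjusted p = 0.125) and 0.07 in GB vs. GA (adjusted p = 0.513), and none passed the threshold. COX6B2 made up 2.78 ± 0.857% of the summed FPKM of the pair in CON, 3.09 ± 0.507% in GA and 1.49 ± 0.324% in GB (SD, n = 3). The log2 ratio of COX6B2 to COX6B1, which hardly depends on how libraries are scaled to each other, was lower by 0.97 in the 3 GB libraries (mean of -6.02) than in the 6 CON and GA libraries (mean of -5.05). The exact permutation test gave p = 0.0238 (two-sided), the smallest that 3 libraries against 6 can give. Between GA and CON this ratio differed by 0.19 (exact permutation test, p = 0.6). In GB, COX6B2 was thus lower while COX7A1 was higher, although both are restricted isoforms.

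COX4I1 and COX4I2 encode subunit 4, the largest nuclear-encoded subunit, which joins the core early in assembly. COX4I1 was 1209, 1360 and 1326 FPKM in CON, 1307, 1261 and 1240 FPKM in GA, and 1172, 1188 and 1203 FPKM in GB. The GB libraries were all below those of both other groups by a small margin. The log2FC was -0.13 in GB vs. CON (SE 0.0478, 95% confidence interval -0.23 to -0.02, adjusted p = 0.0696), -0.10 in GB vs. GA (adjusted p = 0.17) and -0.03 in GA vs. CON (adjusted p = 0.751). COX4I2 was listed at 0 in 5 of the 9 libraries, and its highest values were 0.57 FPKM in CON2, 1.02 FPKM in GA2 and 1.07 FPKM in GB3. Its row carries the deposited description of an uncharacterized protein, whereas the descriptions of the other 8 rows name the subunit. No comparison was made for COX4I2.

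COX6A1 encodes the ubiquitous subunit 6A. Its level was 1177, 1381 and 1426 FPKM in CON, 1371, 1362 and 1352 FPKM in GA, and 1261, 1237 and 1231 FPKM in GB. The GB libraries were below all GA libraries but overlapped with CON, where CON1 was the lowest of the 9 libraries. The log2FC was -0.09 in GB vs. CON (adjusted p = 0.313), -0.13 in GB vs. GA (adjusted p = 0.161) and 0.04 in GA vs. CON (adjusted p = 0.755).

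COX7B2 encodes the testis isoform of subunit 7B. Its level was 2.30, 4.74 and 2.03 FPKM in CON, 6.32, 11.9 and 3.96 FPKM in GA, and 4.03, 2.48 and 5.71 FPKM in GB. The groups overlapped, and GA2 was the highest library. The log2FC was 1.12 in GA vs. CON (95% confidence interval 0.17 to 2.06, adjusted p = 0.202), 0.39 in GB vs. CON (adjusted p = 0.506) and -0.72 in GB vs. GA (adjusted p = 0.232), so that no difference was detectable. Its SD within groups, 0.621 on the log2 scale, was exceeded by only 2.53% of the genes tested, whereas the SD of COX4I1, 0.0572, was exceeded by 85.6%. COX7B2 made up 0.516 ± 0.231% of the summed FPKM with its ubiquitous partner COX7B in CON, 1.45 ± 0.845% in GA and 0.810 ± 0.384% in GB (SD, n = 3).

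With COX7A1 set aside, 1 of 7 isoform genes (COX6B2) was called in GB vs. CON, against a background of 4.01% of all genes tested. The COX6B2 difference was known when the genes were chosen, so a count that includes it cannot be read against the background. Apart from COX6B2, none of these genes was called. In GB vs. GA 0 of 7 were called by limma (background 3.64%), and 1 of 7, again COX6B2, had an unadjusted p under 0.05. In GA vs. CON 0 of 8 were called (background 0.0716%), and COX6B1 and COX7B2 had an unadjusted p under 0.05. The share of all genes tested with an unadjusted p under 0.05 was not determined. Counts at that threshold, here and below, therefore have no background beside them. By adjusted p alone, without the fold threshold, COX6B2 was the only gene of 7 to pass in GB vs. CON (background 33.5%) and in GB vs. GA (background 29%), and 0 of 8 passed in GA vs. CON (background 0.453%). Without CON1 the count by adjusted p was 3 of 7 in GB vs. CON (with COX4I1 at a log2FC of -0.18 and COX6A1 at -0.17) and 2 of 7 in GB vs. GA (with COX6A1), and without CON3 it was 2 of 7 in GB vs. CON (with COX7A2L at 0.24). The call of COX6B2 in GB vs. CON was lost without CON1 or GB3, and 1 of 7 was called in GB vs. GA without GA2 or GB2. The libraries did not overlap for 2 of 7 genes in GB vs. CON (background 46.1%), for 3 of 7 in GB vs. GA (background 46.8%) and for 1 of 8 in GA vs. CON (background 24.7%). The median log2FC of these genes was -0.13, -0.12 and 0.01 in the 3 comparisons, beside -0.02, -0.08 and 0.06 over all genes tested. The comparisons with GB share the GB libraries and are not independent of each other.

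The remaining nuclear subunits of complex IV differed little in GB. Of 7 such genes (COX5A, COX5B, COX6C, COX7B, COX7C, COX8A and NDUFA4), COX5B and NDUFA4 passed the adjusted p in GB vs. CON, a share near the background of 33.5%. In GB vs. GA 0 of 7 passed (background 29%), with 0 of 7 at an unadjusted p under 0.05. In GA vs. CON 0 of 7 passed (background 0.453%), with 3 of 7 at an unadjusted p under 0.05. COX5B, which encodes a zinc-binding subunit on the matrix side, fell by 0.14 in GB vs. CON (766 ± 21.1 to 696 ± 4.32 FPKM, adjusted p = 0.0258). NDUFA4, whose product was first assigned to complex I, fell by 0.18 (842 ± 5.55 to 745 ± 37.6 FPKM, adjusted p = 0.0444). Next was COX8A, with a log2FC of -0.19 (adjusted p = 0.0641). The median log2FC of the 7 genes in GB vs. CON was -0.16. Among other isoform genes of the complex and its substrate, 3 of 6 had a row and 0 of 3 passed in any comparison by limma (1 of 3, CYCS, had an unadjusted p under 0.05 in GB vs. CON). The log2FC in GB vs. CON was 0.13 for CYCS, which encodes cytochrome c, 0.18 for C10H15orf48, a paralog of NDUFA4 known from inflamed cells, and -0.19 for NDUFA4L2, its hypoxia-associated paralog. NDUFA4L2 was listed at 0 in a library of each group.

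The mtDNA-encoded subunits moved far more. COX1, COX2 and COX3, which form the catalytic core, were all called lower in GB vs. CON (background 4.01%) and in GB vs. GA (background 3.64%). COX2 was 2884, 3060 and 2901 FPKM in CON, 3200, 3251 and 3192 FPKM in GA, and 475, 504 and 519 FPKM in GB. COX2 fell by 2.56 in GB vs. CON (adjusted p = 2.32e-10) and fell by 2.69 in GB vs. GA (adjusted p = 1.79e-10). The log2FC was -2.22 and -2.45 for COX3, and -1.12 and -1.25 for COX1. Their log2FC in GA vs. CON was 0.12 to 0.23. By limma 0 of 3 passed (background 0.453%) while 3 of 3 had an unadjusted p under 0.05. In GB, COX7A1 transcripts were thus higher while those of the core were lower, and the log2FC of the other nuclear subunits in GB vs. CON was -0.28 to 0.15, apart from COX6B2 and COX7B2.

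**Figure D3:**
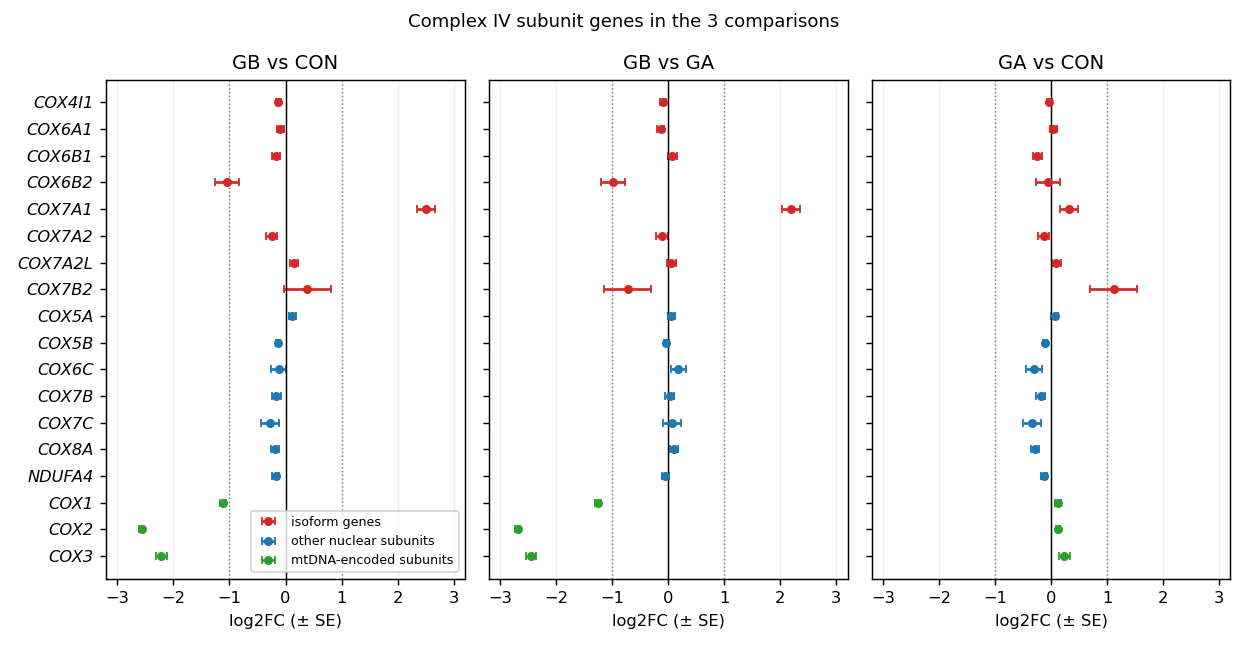
Log2FC (± SE, limma, 3 libraries per group) of complex IV subunit genes in GB vs. CON, GB vs. GA and GA vs. CON, on the log2(FPKM + 0.5) scale. Isoform genes are red, the other nuclear subunits blue and the mtDNA-encoded subunits green, and dotted lines mark a log2FC of -1 and 1. COX7A1 stands at 2.50 and 2.19 in the comparisons with GB, COX6B2 near -1, and COX1, COX2 and COX3 between -2.69 and -1.12.

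Of 31 assembly and mRNA factors of complex IV, 27 had a row and were tested. In GB vs. CON, 4 of 27 passed the adjusted p upwards and 1 of 27 downwards, a share below the background of 33.5%. SCO1, a copper chaperone for the COX2 subunit, was 21.7, 17.3 and 21.2 FPKM in CON, 21.7, 21.1 and 23.6 FPKM in GA, and 31.7, 37.5 and 36.7 FPKM in GB. It rose by a log2FC of 0.80 in GB vs. CON (adjusted p = 0.000283) and of 0.66 in GB vs. GA (adjusted p = 0.00106). COA7, a heme-binding assembly factor, rose by 0.60 in GB vs. CON (adjusted p = 0.00266), and LRPPRC, which stabilises mtDNA-encoded mRNAs, by 0.16 (adjusted p = 0.015). The others, named here after their values were seen, were COX16 (0.25) and COX18 (-0.31). In GB vs. GA, 1 of 27 passed upwards (SCO1) and 2 of 27 downwards (COX18 at -0.32 and HIGD2A at -0.37), a share below the background of 29%. In GA vs. CON 0 of 27 passed by limma (background 0.453%), and 3 of 27 had an unadjusted p under 0.05.

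Transcription factors and other regulators known for COX genes were also listed, and 15 of 15 were tested. In GB vs. CON 2 of 15 passed upwards and 4 of 15 downwards, and in GB vs. GA 2 of 15 upwards and 6 of 15 downwards, beside backgrounds of 33.5% and 29% in either direction. The 3 with the smallest adjusted p in GB vs. CON were MEF2D, a factor of muscle gene expression, with a log2FC of -0.39 (adjusted p = 0.000618), RBPJ, the DNA-binding partner of Notch, with -0.37 (adjusted p = 0.00205), and CXXC5 with -0.26 (adjusted p = 0.00746). Those that rose, named after their values were seen, were MEF2C and SP1. MEF2C, of the same family as MEF2D, rose by 0.70 in GB vs. CON (adjusted p = 0.0412, limma) and 0.75 in GB vs. GA (adjusted p = 0.0363). Its mean lay close to the filter of 0.5 FPKM, at 0.66 FPKM in CON, 0.62 in GA and 1.38 in GB. MEF2D averaged 83.7 FPKM in CON, 79.8 in GA and 63.55 in GB. SP1 rose by 0.25 in GB vs. CON (adjusted p = 0.013, limma) and 0.34 in GB vs. GA (adjusted p = 0.00347). In GA vs. CON 0 of 15 passed by limma (background 0.453%), and 4 of 15 had an unadjusted p under 0.05. Of 9 nuclear subunit genes of complex III, 3 of 9 fell in GB vs. CON, namely UQCR11 (log2FC of -0.48), UQCRQ (-0.47) and UQCRC1 (-0.21), and 2 of 9 fell in GB vs. GA, shares at or below the backgrounds of 33.5% and 29%.

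The 5 genes whose log2(FPKM + 0.5) followed that of COX7A1 most closely over the 9 libraries were GDAP2 (Pearson r of 0.995), ZDHHC9 (0.995), CRYBG1 (0.995), PSMF1 (0.992) and LAP3 (0.991). These are descriptions over libraries that share the difference between GB and the rest, and 410 of the other 12577 genes tested had an r above 0.95. PSMF1, an inhibitor of the proteasome, averaged 47.4 FPKM in CON libraries, 54.1 FPKM with hormones and 194 FPKM with IFNT, a log2FC of 2.02 in GB vs. CON. LAP3, a leucine aminopeptidase, was 47.3, 50.6 and 83.8 FPKM (0.82), and ZDHHC9, a palmitoyltransferase subunit, was 66.4, 73.9 and 135 FPKM (1.02). GDAP2 had a log2FC of 1.58 and CRYBG1 of 0.87. Among the genes of complex IV, r with COX7A1 ran from -0.98 for COX2 to 0.95 for SCO1. It was -0.96 for COX1 and for COX3, -0.81 for COX4I1 and -0.80 for COX6B2.

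**Figure D4:**
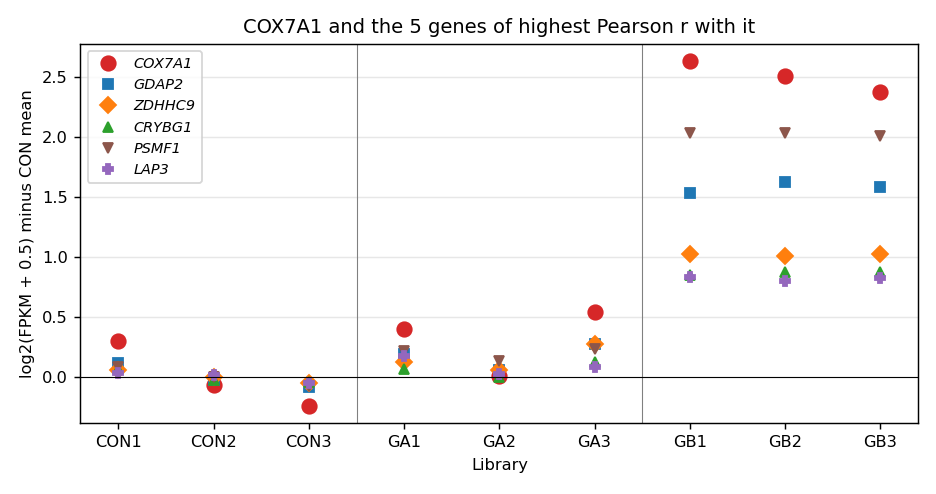
COX7A1 and the 5 genes with the highest Pearson r with it, as log2(FPKM + 0.5) minus the mean of the 3 CON libraries, in each of the 9 libraries. All 6 genes are close to 0 in CON and GA and higher in GB, where COX7A1 is the highest and LAP3 (a log2FC of 0.82) the lowest or close to it.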

How the data were processed

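RNA of 9 libraries (3 each of CON, GA and GB) was analysed. Per the labels and methods, the authors trimmed reads with fastp 0.21.0, removed rRNA reads with Bowtie2 2.33, aligned the rest to ARS-UCD1.2 with HISAT2 2.2.1 and quantified genes with RSEM 1.3.3. The deposited values are the authors' FPKM, scaled for exon length and mapped reads and written to 2 decimals, in separate columns for each replicate, without read counts. The annotation release, the use of strand in counting and the treatment of reads shared with processed pseudogenes, which many short COX genes have, are not given in these sources, so the levels of these genes are uncertain to that extent.

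Values were used as log2(FPKM + 0.5), and fold changes on this scale understate those of low genes. Genes with a mean of at least 0.5 FPKM (12578) were fitted in R 4.3.3 with limma 3.58.1, with a variance trend, 9 libraries in 1 model and Benjamini-Hochberg adjustment over all genes. A gene was called at |log2FC| above 1 and adjusted p under 0.05. Isoform ratios were compared with exact permutation tests. The procedure was tested on simulated data. Plots were made with matplotlib 3.10.9 (Python 3.11.15).

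Members and lists were chosen with earlier results of these data known, the COX7A1 and COX6B2 differences among them. Named are all members, in each list the called genes and the 3 of smallest adjusted p in GB vs. CON, and the 5 genes most correlated with COX7A1. Also named are the nearest gene of the expression table on either side of each tested member and checks of the treatments (ISG15, MX2 and GREB1). COX6C was read from the row MGC148714 by its deposited description. COX6A2, COX8B, COX8C, CYCT, COA4, COA8, SURF1 and CMC2 were not analysed here. Endothelial markers summed to 1.33 to 2.92 FPKM, myeloid markers to 20.8 to 27.6 and smooth muscle markers to 7431 to 8400. The mean of MX2 was 0.06 FPKM in CON, 0.11 in GA and 757 in GB. Alternatives were other pseudocounts, filters, scalings (TPM, median-of-ratios, quantile), no variance trend, only 2 groups, a replicate block, library GC content as a covariate and each library left out.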

Additional observations from a re-analysis of the deposited data

How the results depend on the processing

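COX7A1 was higher in GB under all 20 alternatives (log2FC of 2.38 to 2.65 in GB vs. CON and 2.03 to 2.30 in GB vs. GA), and COX6B2 was lower in both comparisons under all of them (-1.24 to -0.82 and -1.17 to -0.84, adjusted p of 0.0033 to 0.147 and 0.00364 to 0.0365, limma). The number of isoform genes called in GB vs. CON was 1, and 0 with library GC content as a covariate, where the number past the adjusted p was also 0 and that of other complex IV genes 5 instead of 10. In GB vs. GA the number called was 0, and 1 with a pseudocount of 0.1 (COX6B2, log2FC of -1.01), and the number past the adjusted p was 3 instead of 1 when only the 2 groups were compared (COX4I1 and COX6A1 added). The cause of these differences was not tested. Leaving out each library in turn gave 0 to 1 called and 1 to 3 past the adjusted p in GB vs. CON, 0 to 1 and 1 to 2 in GB vs. GA, and 6 to 12 other complex IV genes past it in GB vs. CON (6 without GB3). The difference in the log2 ratio of COX6B2 to COX6B1 was -1.137 to -0.876 with a GB library left out, each at p = 0.0714 in the exact permutation test, the smallest that 2 libraries against 6 allow.

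Over all genes tested, same-numbered libraries did not deviate together (r of -0.031 to 0.077). A library's best partner carried its own number in 8 of 18 cases, so that the numbers do not pair the libraries as a whole. For some isoform genes the highest or the lowest library carried the same number in every group. This was noticed after the values were seen, and the share of all genes with such a pattern was not determined. Within its group, COX7A2 was highest in CON2, GA2 and GB2. In CON3, GA3 and GB3, COX7A2 and COX6B1 were lowest and COX7A2L was highest. For COX4I1, COX6A1, COX6B2, COX7A1 and COX7B2, neither the highest nor the lowest library carried the same number in every group. The full order of the libraries was the same in every group only for COX7A2. With the replicate number as a block, 4 isoform genes instead of 1 passed the adjusted p in GB vs. CON, with COX7A2 (-0.25, adjusted p = 0.00329, limma), COX7A2L (0.15, adjusted p = 0.0338) and COX6B1 (-0.17, adjusted p = 0.0453) added, and no other count of isoform genes changed. With library GC content as a covariate the direction of these 3 in GB vs. CON was the opposite (0.12, -0.09 and 0.17, none past the adjusted p). GA vs. CON gave 0 isoform genes under every alternative. Without read counts, depth limits for COX4I2 and COX7B2 could not be set.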

Other observations

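The nearest genes on either side of the isoform genes were taken from the gene order of the RefSeq annotation of ARS-UCD2.0. Only genes with a row in the expression table were considered, and 16015 of its 17162 rows matched a symbol of that annotation. Annotated genes that lie closer may therefore have been passed over. The difference between a gene and its neighbour was not tested. On either side of COX7A1, CAPNS1, a calpain subunit gene, had a log2FC of 0.02 in GB vs. CON (adjusted p = 0.84, limma) and ZNF146 rose by 0.42 (adjusted p = 0.0071). COX6B1 and COX7A1 lie in the same region with 32 annotated genes between them, of which 22 were tested. Of these 22, 0 were called in either comparison with GB, beside backgrounds of 4.01% (against CON) and 3.64% (against GA). At such backgrounds a count of 0 among 22 genes does not set the region apart. The median log2FC of the 22 was -0.21 against CON and -0.19 against GA, beside -0.02 and -0.08 over all genes tested. The highest log2FC in GB vs. CON was the 0.02 of CAPNS1. Beside COX6B2 lies IL11, an interleukin of the IL6 family with a role in decidualization, which fell by 0.76 in GB vs. CON (481 to 281 FPKM, adjusted p = 0.000463, limma) and fell by 0.68 in GB vs. GA (adjusted p = 0.00107), and on the other side KMT5C had a log2FC of -0.28 in GB vs. CON (adjusted p = 0.212).

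Next to COX4I1, EMC8 overlaps the gene in the annotation and had a log2FC of 0.11 (adjusted p = 0.216, limma), and IRF8, an interferon-regulated transcription factor, was called higher in GB vs. CON at a log2FC of 1.66 (0.19 to 1.65 FPKM, adjusted p = 0.00288). Since the use of strand in counting is not given, reads of COX4I1 and EMC8 may be shared in part. Beside COX7A2, TMEM30A had a log2FC of -0.85 in GB vs. CON and was called lower in GB vs. GA (-1.04, adjusted p = 1.9e-05, limma), and COL12A1 fell by 0.32 in GB vs. CON. MSI1 beside COX6A1 was called lower in GB vs. CON (-1.11, 1.94 to 0.64 FPKM, adjusted p = 0.00229, limma), while TRIAP1 on its other side had a log2FC of 0.13 (adjusted p = 0.364). Of the other neighbours tested, GNPDA2 beside COX7B2 had a log2FC of 0.29 in GB vs. CON, ETV2 and UPK1A beside COX6B1 of -0.49 and -0.05, and EML4 beside COX7A2L of -0.02. KCNG3 and GABRB1 were below the filter.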
